A study of Mus musculus with 29 samples.

Results

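The 8 genes described here, Dntt, Il7r, Rag1, Rag2, Lef1, Tcf7, Notch1 and Satb1, are genes that lymphoid-primed progenitors use before lymphoid commitment. They were taken as a named list out of 21887 protein-coding mouse genes. For each gene, every region called for acetylation of histone H3 at lysine 27 (H3K27ac) and every called binding peak of IRF8 or CEBPA within 50 kb of the gene span was collected from 22 chromatin immunoprecipitation sequencing libraries. The windows held 100 merged H3K27ac elements out of 112928 in the genome, each counted once although the Rag1 and Rag2 windows share elements.

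All mice were C57BL/6. H3K27ac was mapped in 7 groups of 2 libraries. Wild-type (WT) mice gave LSK cells (Lin-, Sca1+ and CD117+ bone marrow stem and progenitor cells), lymphoid-primed multipotent progenitors (LMPP) from bone marrow, and type 1 classical dendritic cells (cDC1) from spleen. From mice whose Irf8 +56 kb enhancer is deleted (d56kb) came 3 bone marrow populations. They were LMPP, GMP (granulocyte-monocyte progenitors) and MDP (monocyte-dendritic cell progenitors). IRF8-deficient mice (IRF8KO) gave LMPP. No GMP or MDP of WT mice were analysed here, so that both d56kb myeloid progenitors were set against d56kb LMPP. The age and sex of the mice and the construction of the alleles are not given in the sources used here. Binding was mapped for IRF8, on which cDC1 depend, and for CEBPA, which drives granulocyte and monocyte programs, in WT cDC1 and in WT bone marrow monocytes (Mo), with 2 libraries for each pairing of factor and cell. For the factor libraries cDC1 were enriched as CD8a+ cells by magnetic selection alone, and for H3K27ac they were sorted as XCR1+ cells. LMPP, GMP and MDP were gated as IL-7R-, so the cells were selected for lacking the surface protein that Il7r encodes. The labels call the libraries biological duplicates without saying whether they came from different animals, and the p-values therefore measure the spread between these samples only.

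Lymphoid priming is the low-level opening and transcription of lymphoid genes in progenitors that can still give myeloid cells. Rag1 and Rag2 together form the recombinase that cuts antigen receptor genes, and Dntt encodes the terminal transferase that adds untemplated nucleotides at the joins. Il7r encodes the receptor for a lymphoid survival cytokine, and Notch1 the receptor whose signal starts T cell development. Lef1 and Tcf7 encode HMG-box partners of beta-catenin, and Satb1 encodes a chromatin organiser of lymphoid progenitors and thymocytes. H3K27ac marks active promoters and enhancers.

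The H3K27ac libraries held between 1.26 and 10.9 M tags. The IRF8KO LMPP libraries were the shallowest, at 1.26 and 1.47 M tags with 18.6 and 17.8% of them inside called regions, compared with 2.0 and 3.65 M tags and shares of 23.7 and 15.03% in WT LMPP. In d56kb LMPP the share was 36.8 and 38.1%. WT LSK held 8.30 and 7.19 M tags with shares of 41.7 and 34.1%. The cDC1 libraries differed from each other, with 5.42 and 10.9 M tags, shares of 52.3 and 16.4%, and 48.7 and 33.9 Mb covered. Covered length was therefore scaled to the mean of all libraries before genes were compared, and is given as scaled kb. Around the deleted enhancer, within 2 kb of the point 56 kb downstream of Irf8, called regions covered between 642 and 2313 bases in the 6 WT libraries. They covered 0 bases there in all 6 d56kb libraries and in both IRF8KO libraries. The IRF8KO labels name no deleted enhancer, so 0 called bases do not by themselves show a deletion. The 7 cDC1 markers summed to 199 and 212 scaled kb in cDC1 and to 23.5 to 44.2 in the progenitors. The 6 GMP markers reached 117 and 116 scaled kb in d56kb GMP, and 101 and 93.2 in d56kb MDP. The 5 MDP markers summed to 93.4 and 85.4 in d56kb MDP and to 90.7 and 85.2 in cDC1. The 5 LMPP markers summed to 82.9 and 67.9 in WT LMPP and to 80.1 and 77.4 in WT LSK. The MDP set thus did not separate MDP from cDC1, nor the LMPP set WT LMPP from WT LSK. Markers of mature B cells (5 genes) and of mature T and NK cells (5 of 6 measured) summed to 12.0 to 19.1 and 30.1 to 43.5 scaled kb over all libraries. In a mixed population, fewer cells carrying an acetylated site and less acetylation per cell cannot be told apart.

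The promoters fall into those with called H3K27ac at the start and those without. Promoter windows (250 bases before to 50 after each RefSeq start, build GRCm38.p6) were matched for all 8 genes, with 16 windows in all. Dntt, Rag2, Notch1 and Satb1 had a region over a start in both libraries of at least 1 group, against 49.4% of 17492 protein-coding genes with a window. Il7r, Rag1, Lef1 and Tcf7 had no region over any start in any of the 14 libraries, as did 46.0% of those genes. The sequences below show 3 promoters acetylated in progenitors (Dntt, Rag2 and Notch1), the CpG-rich Satb1 promoter acetylated also in cDC1, and 2 promoters without a call (Il7r and Tcf7). Each reads 5′ to 3′ on the gene's strand, and capitals mark CpG dinucleotides.
Dntt chr19:41029025-41029324 (+ strand): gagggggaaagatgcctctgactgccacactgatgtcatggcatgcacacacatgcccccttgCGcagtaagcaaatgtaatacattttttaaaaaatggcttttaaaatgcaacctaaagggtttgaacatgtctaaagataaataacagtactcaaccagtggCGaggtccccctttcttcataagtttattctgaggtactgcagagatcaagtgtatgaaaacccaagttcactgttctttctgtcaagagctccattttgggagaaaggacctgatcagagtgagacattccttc
Rag2 chr2:101624462-101624761 (+ strand): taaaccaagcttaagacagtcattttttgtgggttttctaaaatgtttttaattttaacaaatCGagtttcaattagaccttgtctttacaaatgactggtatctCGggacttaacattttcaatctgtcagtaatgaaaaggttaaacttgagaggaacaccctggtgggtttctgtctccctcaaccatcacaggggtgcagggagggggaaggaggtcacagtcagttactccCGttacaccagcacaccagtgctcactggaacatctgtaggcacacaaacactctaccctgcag
Notch1 chr2:26503773-26504072 (- strand): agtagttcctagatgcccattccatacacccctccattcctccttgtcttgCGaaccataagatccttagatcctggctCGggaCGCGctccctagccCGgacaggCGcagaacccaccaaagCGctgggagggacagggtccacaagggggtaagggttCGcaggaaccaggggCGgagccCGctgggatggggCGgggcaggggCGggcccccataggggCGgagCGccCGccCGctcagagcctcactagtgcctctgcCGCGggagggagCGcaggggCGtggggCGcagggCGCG
Satb1 chr17:51832598-51832897 (- strand): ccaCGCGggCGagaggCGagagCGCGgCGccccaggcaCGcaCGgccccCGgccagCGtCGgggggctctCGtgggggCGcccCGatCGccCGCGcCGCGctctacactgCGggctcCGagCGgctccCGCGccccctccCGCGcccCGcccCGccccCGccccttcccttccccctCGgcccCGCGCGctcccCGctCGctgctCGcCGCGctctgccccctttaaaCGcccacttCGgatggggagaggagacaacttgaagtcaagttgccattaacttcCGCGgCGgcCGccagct
Il7r chr15:9529827-9530126 (- strand): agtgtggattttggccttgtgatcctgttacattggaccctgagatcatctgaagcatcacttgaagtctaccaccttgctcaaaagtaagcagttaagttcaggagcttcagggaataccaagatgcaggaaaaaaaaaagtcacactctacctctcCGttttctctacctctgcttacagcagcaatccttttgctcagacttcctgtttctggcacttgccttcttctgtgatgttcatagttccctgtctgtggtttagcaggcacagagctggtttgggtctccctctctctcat
Tcf7 chr11:52282965-52283264 (- strand): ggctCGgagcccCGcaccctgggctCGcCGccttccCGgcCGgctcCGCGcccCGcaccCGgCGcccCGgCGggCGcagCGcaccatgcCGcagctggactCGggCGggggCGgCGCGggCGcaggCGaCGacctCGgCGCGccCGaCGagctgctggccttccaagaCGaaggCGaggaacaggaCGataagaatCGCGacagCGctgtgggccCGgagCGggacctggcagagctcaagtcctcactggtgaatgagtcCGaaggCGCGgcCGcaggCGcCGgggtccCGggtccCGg

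The Dntt window holds 2 CpG and the Rag2 window 3, both under the median of 7 over 32851 promoter windows, while Notch1 holds 23 and this Satb1 window 45. Dntt was covered at its start in 8 libraries, in both libraries of WT LSK, WT LMPP and d56kb LMPP. Rag2 was covered in 9, in both libraries of WT LSK, d56kb LMPP, IRF8KO LMPP and d56kb GMP. Notch1 was covered in 12 libraries, in both of every group except cDC1. The Satb1 window shown was covered in 12 libraries, including both from cDC1. CpG content did not separate covered from uncovered starts among the 8 genes: the Tcf7 window shown also holds 45 CpG, and Lef1 starts hold up to 21, with no call there. Of 8013 genes with at least 17 CpG in a window, 18.5% had no region at any start in any library. A composite ETS and IRF motif and an interferon-stimulated response type motif were searched on both strands. Neither occurred in the 16 windows, against 2.72% and 3.44% of all promoter windows. The C/EBP-like motif TTGCNNAA, searched in the same way, occurred in the Il7r window alone, against 10.8% of all windows. These matches are a description of the windows and do not show binding.

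Dntt (chr19:41029275-41059525, mm10) was covered mainly in LSK and LMPP. Covered length in its window was 15.3 and 14.3 scaled kb in WT LSK, 12.6 and 10.8 in WT LMPP, 16.6 and 15.8 in d56kb LMPP, and 6.89 and 10.3 in IRF8KO LMPP. It was 2.33 and 1.90 in d56kb GMP, 2.27 and 4.00 in d56kb MDP, and 0.58 and 0 in cDC1. All 8 LSK and LMPP libraries thus lay above all 6 libraries of the other groups, and GMP and MDP overlapped each other. The window held 8 elements called in both libraries of at least 1 group. An element of 8180 bases spanned the start (chr19:41025499-41033678) and was covered over 6352 and 6996 bases in WT LSK, 3886 and 4049 in WT LMPP, 6834 and 6065 in d56kb LMPP, and 2511 and 2436 in IRF8KO LMPP. In d56kb MDP it was covered over 1002 and 1139 bases, and it was listed at 0 in both GMP and both cDC1 libraries. The start window itself was not covered in both libraries of IRF8KO LMPP or of d56kb MDP. The element of 9184 bases centred 8.7 kb upstream (chr19:41016008-41025191) was covered over 5226 to 8328 bases in WT LSK and d56kb LMPP, 2748 and 3129 in WT LMPP, and 501 and 2353 in IRF8KO LMPP. GMP kept 501 and 665 bases of it, where 501 is the smallest region width called. The element 30.5 kb upstream lies nearer to Blnk, a B cell adaptor gene whose span enters the window, and was called in both libraries of WT LSK, WT LMPP and all 3 d56kb groups.

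**Figure D1:**
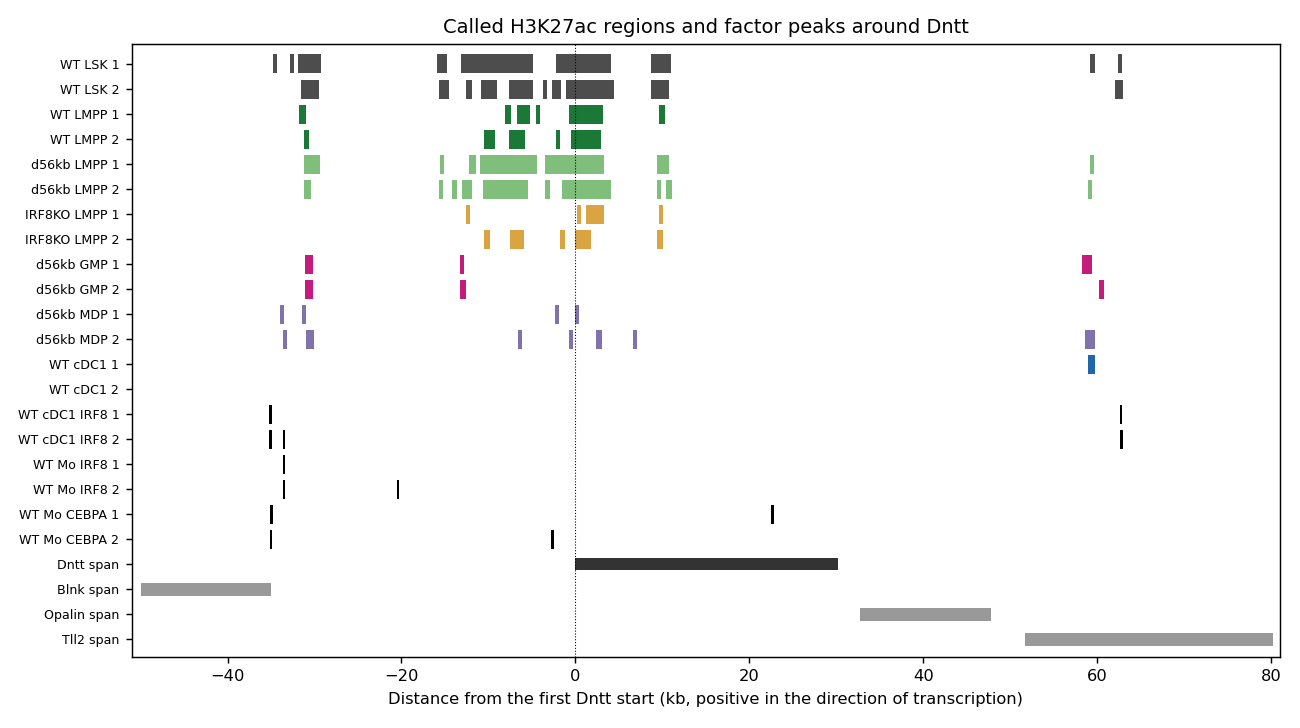
Called H3K27ac regions in each of the 14 libraries (coloured boxes), factor peaks (black boxes) and gene spans (grey) plotted by distance from the Dntt start in kb. The block of regions from about the start to the element 8.7 kb upstream fills the LSK and LMPP rows, is reduced to small boxes in GMP and MDP, and is absent from the cDC1 rows.

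Rag1 (chr2:101638252-101649532) and Rag2 (chr2:101624712-101632528) lie side by side in opposite directions. Their windows share 94.3 kb, 84.7% of the Rag1 window and 87.4% of the Rag2 window, so their values are not independent. The Rag2 window was covered over 6.04 and 6.85 scaled kb in WT LSK, 3.79 and 7.63 in WT LMPP, 6.77 and 9.31 in d56kb LMPP, and 2.41 and 5.84 in IRF8KO LMPP. The window held 5.06 and 4.56 in d56kb GMP, 3.36 and 3.48 in d56kb MDP, and 2.03 and 2.42 in cDC1. WT LMPP overlapped WT LSK, the other LMPP groups and GMP, and IRF8KO LMPP lay wholly below WT LSK and d56kb LMPP. An element of 6659 bases (chr2:101619789-101626447) spans the Rag2 start and was called in both libraries of all 6 progenitor groups and in neither cDC1 library. The start window itself was not covered in both libraries of WT LMPP or of d56kb MDP. The element was covered over 5900 and 5903 bases in WT LSK, 5250 and 6596 in d56kb LMPP, 3548 and 3431 in d56kb GMP, and 501 and 2096 in IRF8KO LMPP. It overlaps the span of Iftap, which covers the Rag2 start. The element of 1616 bases in the Rag2 gene body (centred 3.7 kb from the start) remained called in both cDC1 libraries, at 628 and 501 bases. The Rag1 start carried no region, and the nearest element called in both libraries of a group on its upstream side lay 29.7 kb away beside Traf6 (chr2:101678332-101680190), widest in cDC1 at 1721 and 1360 bases.

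**Figure D2:**
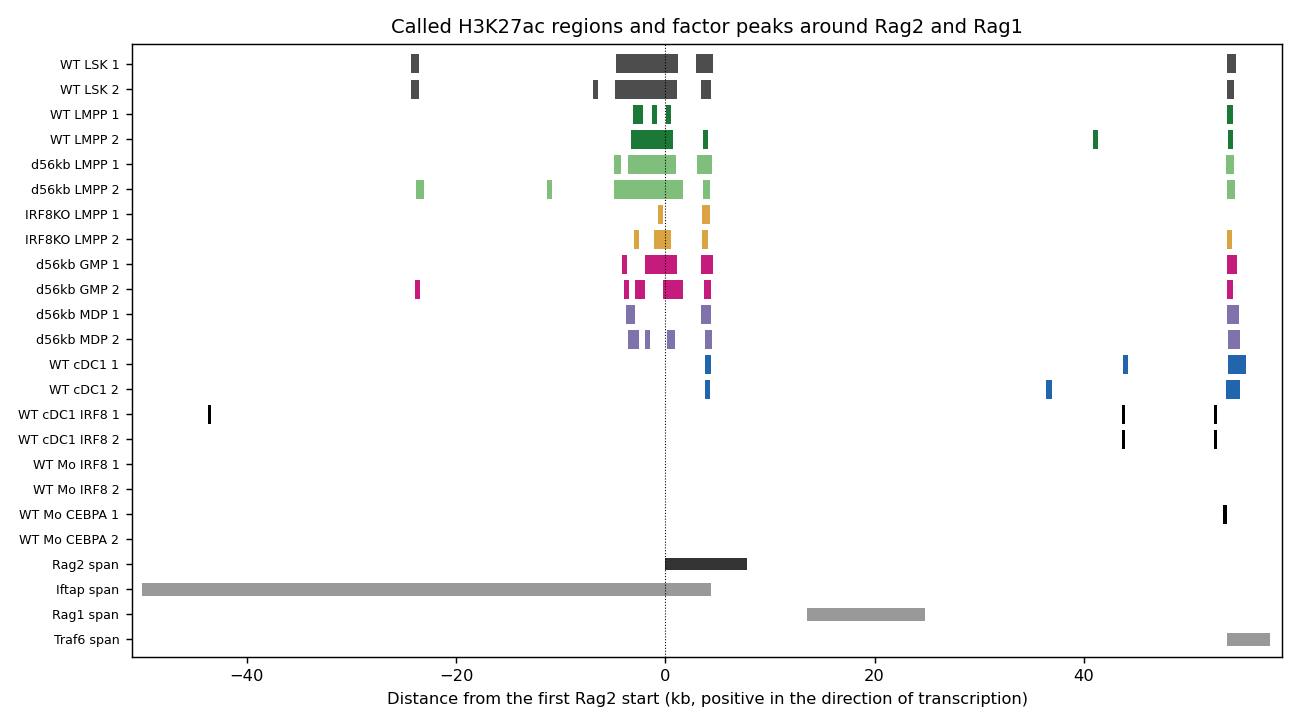
Called H3K27ac regions by library (coloured boxes), factor peaks (black boxes) and gene spans (grey) by distance from the Rag2 start in kb. Regions of the merged element that spans the Rag2 start appear in all 12 progenitor libraries and in neither cDC1 library. The start window itself was covered in 9 libraries. The element near Traf6 at the right is widest in cDC1.

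Il7r (chr15:9506159-9529941) had little called acetylation. Its window was covered over 1.90 and 1.88 scaled kb in WT LSK, 0 and 0 in WT LMPP, 1.24 and 2.52 in d56kb LMPP, and 1.30 and 0 in IRF8KO LMPP. Coverage was 1.04 and 1.14 in d56kb GMP, 1.94 and 2.37 in d56kb MDP, and 3.42 and 1.03 in cDC1. Only WT LMPP was at 0 in both libraries. The 4 elements called in both libraries of a group were all nearer to Capsl or Spef2 than to Il7r, and the widest (chr15:9462435-9465106, 2672 bases) lies 66.1 kb downstream of the start at Capsl. No region in the Il7r gene body was called in both libraries of a group. The values for Il7r therefore describe its neighbourhood more than the gene.

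Notch1 (chr2:26457902-26503822) was covered over 22.8 and 21.9 scaled kb in WT LSK, 15.02 and 15.7 in WT LMPP, 22.1 and 22.6 in d56kb LMPP, and 11.5 and 15.4 in IRF8KO LMPP. Coverage was 15.6 and 13.6 in d56kb GMP, 19.9 and 23.8 in d56kb MDP, and 3.19 and 3.24 in cDC1. WT LSK, d56kb LMPP and d56kb MDP formed an upper set that overlapped, WT LMPP, IRF8KO LMPP and d56kb GMP a lower set that overlapped, and cDC1 lay below both. The window held 12 elements called in both libraries of at least 1 group. The widest, 5469 bases centred 10.9 kb upstream (chr2:26511992-26517460), was covered over 4617 to 5003 bases in WT LSK and 4641 and 4673 in d56kb LMPP, over 1267 and 1981 in WT LMPP, and was absent from cDC1. The element over the start (chr2:26500874-26504737) was called in both libraries of all 6 progenitor groups and in 1 cDC1 library at 501 bases. That cDC1 region did not reach the start window. A gene body element centred 29.4 kb into the gene (chr2:26471736-26477094) had another pattern. It was covered over 2496 and 2358 bases in d56kb GMP, 1758 and 4347 in d56kb MDP, 1980 and 1941 in WT LSK and 952 and 501 in cDC1. It was uncalled in both WT LMPP and both IRF8KO LMPP libraries, and covered over 0 and 633 bases in d56kb LMPP. One element at Sec16a, 58.1 kb downstream, was called in all 14 libraries.

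**Figure D3:**
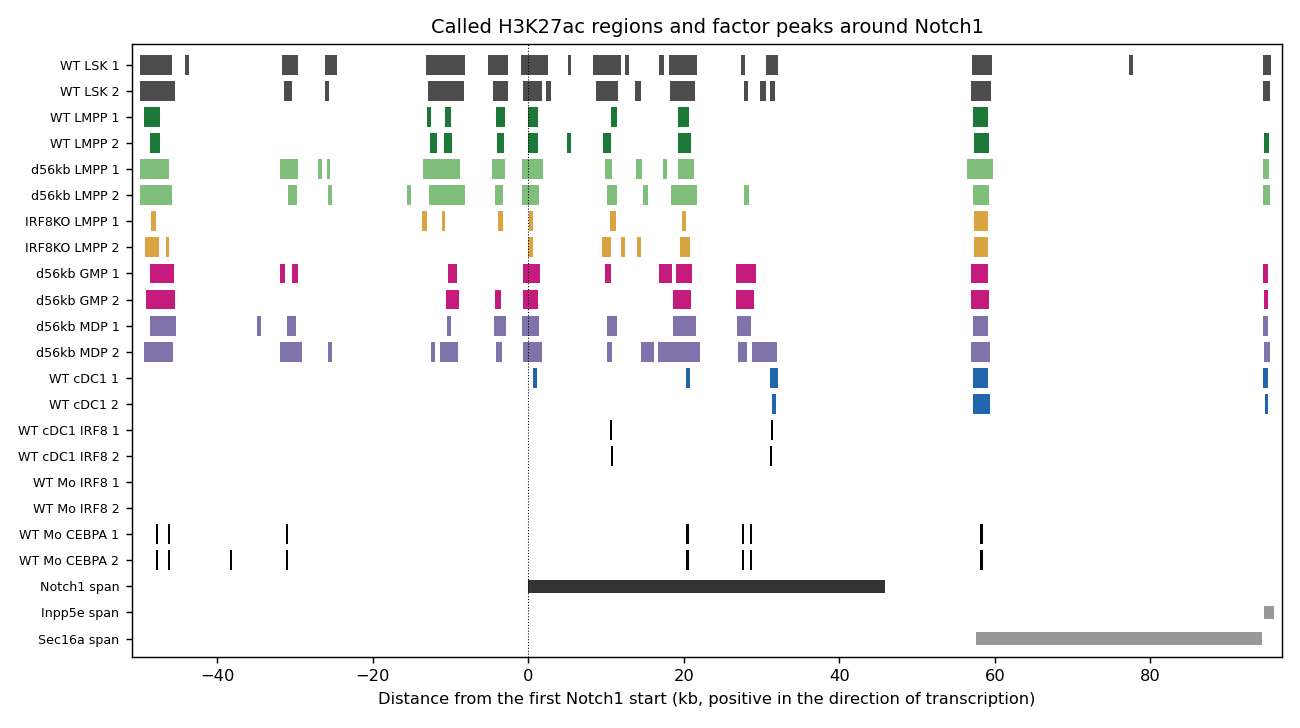
Called H3K27ac regions by library (coloured boxes), factor peaks (black boxes) and gene spans (grey) by distance from the Notch1 start in kb. Most elements around the start are missing from the cDC1 rows. The element 29.4 kb into the gene is present in LSK, GMP, MDP and cDC1 rows. It is missing from WT LMPP, IRF8KO LMPP and the first d56kb LMPP library.

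Lef1 (chr3:131110297-131224357) was covered over 4.34 and 2.37 scaled kb in WT LSK, 1.56 and 1.06 in WT LMPP, 2.94 and 2.02 in d56kb LMPP and 0.98 and 1.32 in IRF8KO LMPP. Coverage was 0.90 and 1.03 in d56kb GMP, 0.57 and 0.81 in d56kb MDP and 0 and 0 in cDC1. WT LSK and d56kb LMPP overlapped at the top, and cDC1 was listed at 0. Its gene body element 47.3 kb from the start (chr3:131156671-131158489) was called in both libraries of WT LSK (1819 and 1566 bases) and d56kb LMPP (1310 and 1535 bases) and in no other library. The element 98.4 kb from the start was called in both WT LSK libraries, and the third, 161.6 kb from the start, lies at Hadh.

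Tcf7 (chr11:52246527-52283383) was covered over 5.77 and 4.46 scaled kb in WT LSK, 4.28 and 3.69 in WT LMPP, 5.42 and 4.91 in d56kb LMPP and 2.95 and 3.94 in IRF8KO LMPP. The other groups stood at 4.37 and 3.19 in d56kb GMP, 2.45 and 1.38 in d56kb MDP and 4.61 and 1.98 in cDC1. WT LSK and d56kb LMPP overlapped and lay above WT LMPP, which overlapped IRF8KO LMPP, GMP and cDC1, and MDP lay below every progenitor group. Its widest element (3043 bases, chr11:52230679-52233721) lies at Skp1, 50.8 kb downstream, and was called in all 14 libraries. The gene body element 17.1 kb from the start (chr11:52264934-52266893) was called in both libraries of WT LSK (1728 and 1541 bases), d56kb LMPP (968 and 888) and cDC1 (1880 and 665), and in none of the other 8 libraries. The element 36.0 kb upstream (chr11:52317977-52320095) was called in both libraries of WT LSK, WT LMPP and d56kb LMPP, in 1 GMP library, and in none from IRF8KO LMPP, MDP or cDC1.

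Satb1 (chr17:51736187-51833290) was covered over 7.29 and 7.63 scaled kb in WT LSK, 7.36 and 4.53 in WT LMPP, 7.87 and 7.69 in d56kb LMPP and 2.95 and 6.06 in IRF8KO LMPP. The values were 8.57 and 8.67 in d56kb GMP, 6.64 and 9.48 in d56kb MDP and 3.70 and 3.61 in cDC1. No other gene was named in its window. Its 2 widest elements hold starts (chr17:51830175-51834495 and chr17:51810779-51815238) and were called in all 14 libraries, and the elements over the Dntt and Rag2 starts were called in neither cDC1 library. The third, 71.4 kb into the gene, was called in both libraries of WT LSK (2482 and 2767 bases) and d56kb LMPP (790 and 2151). A gene body element 43.8 kb from the start (chr17:51787923-51791155) was called in both GMP libraries, at 2357 and 1793 bases, in 1 MDP library at 3230 bases and in 1 d56kb LMPP library at 501 bases.

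**Figure D4:**
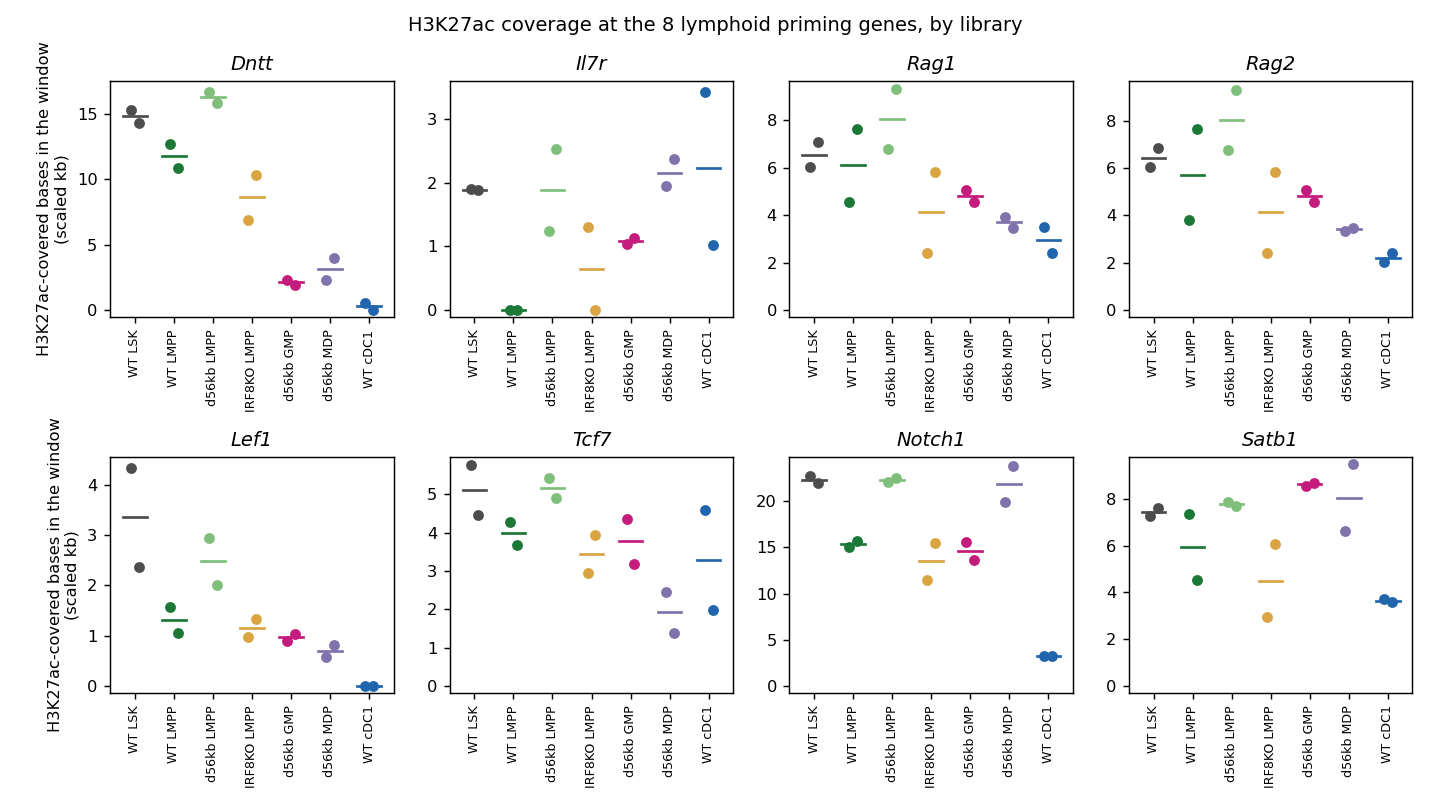
H3K27ac-covered length in the window of each gene (scaled kb, linear axes that differ between panels) in each of 2 libraries per group (points), with the group mean as a line. Dntt and Lef1 are highest in LSK and d56kb LMPP and lowest in cDC1, Notch1 is also high in MDP, and both GMP libraries lie above both d56kb LMPP libraries at Satb1.

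Of the 100 elements, 43 were called in both libraries of at least 1 group and 48 in a single library only, against 30.7% and 64.0% of all merged regions. Of the 43, 26 had a member as their nearest gene, with 0 for Il7r, Rag1 and Rag2. Elements nearer to another gene are included in all element counts given here. The counts called in both libraries were 34 in WT LSK, 29 in d56kb LMPP, 23 in d56kb MDP, 21 in d56kb GMP, 17 in WT LMPP, 13 in IRF8KO LMPP and 11 in cDC1. In the same order, the mean length covered over the genome was 48.3, 36.6, 36.0, 39.0, 23.6, 18.0 and 41.3 Mb. The counts were not set against all merged regions group by group. The group mean of tags was lowest in IRF8KO LMPP (1.36 M), then in d56kb MDP (2.59 M), and that of the share of tags in regions was lowest in IRF8KO LMPP (18.2%), then in WT LMPP (19.4%). The part of depth and of that share in these counts was not tested.

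WT LMPP was first set against WT LSK, the population that contains it. All 8 genes had less scaled coverage in LMPP, with a median log2 difference of -0.31 against 0.02 over all 19227 genes tested, and none passed the test (limma over 14 libraries, Benjamini-Hochberg adjusted over all genes, threshold 0.05). Among all genes 0.286% were called higher and 0.941% lower, 236 in all, and 3681 had an unadjusted p under the threshold. The 3 members with such an unadjusted p were Il7r (-1.53 ± 0.42 SE, adjusted p = 0.0787), Notch1 (-0.51 ± 0.14, adjusted p = 0.0805) and Lef1 (-0.88 ± 0.29, adjusted p = 0.121). Differences are on the log2 scale of scaled bases plus 1000, and the Il7r value depends on that pseudocount since WT LMPP is listed at 0. Without scaling all 8 genes were called lower, but the median of all genes was then -0.71 (0.02 with scaling), and the split of calls went from 55 higher and 181 lower to 297 higher and 10442 lower. Relative to that median the 8 genes lay between -1.15 and -0.29. By elements, 12 of 34 were lost (called in both LSK libraries and neither LMPP library) and 0 gained, against 27.7% and 0.377% of all elements called in both libraries of either group. Of NOTCH pathway genes other than Notch1, 2 of 12 fell, Notch2 from 20.2 to 10.9 scaled kb (adjusted p = 0.0409) and Hes1, a NOTCH target, from 5.54 to 2.04 (adjusted p = 0.0427). Neither call held with the share of tags in regions as a covariate, in a fit of the 4 libraries or without either LSK library, each of which called 0 of all genes. None of 18 other lymphoid progenitor genes, 12 B lineage genes or 12 T lineage genes passed.

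In splenic cDC1, 5 of the 8 genes had less acetylation than in WT LMPP and 1 had more. Dntt fell by 3.34 ± 0.25 on the log2 scale (SE, adjusted p = 4.6e-07) and Notch1 fell by 1.96 ± 0.14 (adjusted p = 3.2e-07). Lef1 fell by 1.20 ± 0.29 (adjusted p = 0.00581) to a listed 0, Rag2 by 1.00 ± 0.31 (adjusted p = 0.0222) and Rag1 by 0.82 ± 0.30 (adjusted p = 0.0466). Il7r rose by 1.58 ± 0.42 from a listed 0 (adjusted p = 0.00919). Satb1 differed by -0.55 (adjusted p = 0.119) and Tcf7 by -0.28 (adjusted p = 0.480). The background was 20.6% of all genes lower and 14.4% higher, and the median of the 8 genes was -0.91 against -0.15 for all genes. Dntt and Notch1 passed under all 14 alternatives run. The Il7r call was lost without the first cDC1 library, and Il7r was at 0.43 with a 10 kb window (adjusted p = 0.347). Lef1 was at -0.42 with a 10 kb window (adjusted p = 0.482) or with regions given to the nearest gene (adjusted p = 0.494), and at -2.21 with a 100 kb window. The element at Hadh was the only Lef1 element called in both WT LMPP libraries. The Rag1 and Rag2 calls were lost without the second WT LMPP library or either cDC1 library. Of 13 alternatives, Rag1 passed under 2 and Rag2 under 4. Rag1 turned to 0.18 with a 10 kb window and 0.063 with a 100 kb window. Rag2 was at -1.87 with a 10 kb window and -0.41 with a 100 kb window (adjusted p = 0.316). Tcf7 turned to 1.09 (adjusted p = 0.0380) with a 10 kb window and to 0.34 without scaling. Without scaling the median of all genes was 0.29 (-0.15 with scaling) and the split of calls went from 2767 higher and 3968 lower to 5870 higher and 1339 lower, and Dntt and Notch1 stayed lower, at -2.73 and -1.26. Of 23 elements, 10 were lost and 4 gained, against 12.4% and 32.7% of all elements.

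Against WT LSK, cDC1 had lower coverage at 6 genes and higher at none. Dntt fell by 3.65 ± 0.25 (adjusted p = 2.4e-07), and Notch1 by 2.47 ± 0.14 (adjusted p = 6.1e-08). Lef1 fell by 2.08 ± 0.29 (adjusted p = 9.6e-05). Rag2 fell by 1.21 ± 0.31 (adjusted p = 0.00801), Rag1 by 0.94 ± 0.30 (adjusted p = 0.0263) and Satb1 by 0.86 ± 0.26 (adjusted p = 0.0190). Il7r and Tcf7 overlapped between the groups. Lower calls made up 19.3% and higher calls 13.1% of all genes, with medians of -1.07 for the 8 genes and -0.02 for all. The first 3 genes passed under all 14 alternatives. Satb1 lost its call without any 1 of the 4 libraries, Rag1 without either LSK library or the second cDC1 library, and Rag2 without the second LSK or the first cDC1 library. Rag1 was at -0.15 with a 10 kb window (adjusted p = 0.806) and -0.10 with a 100 kb window (adjusted p = 0.885). Rag2 was at -2.11 with a 10 kb window and -0.48 with a 100 kb window (adjusted p = 0.261). Without scaling the split went from 2527 higher and 3702 lower to 1807 and 4750. Elements lost were 21 of 35 and gained 0, against 31.1% and 16.4%. The comparison shares the cDC1 libraries with the one before.

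Lists fixed by function behaved unevenly in cDC1. Against WT LMPP, 6 of 12 B lineage genes fell and none rose. Among them were Blnk from 13.3 to 1.27 scaled kb, in a window that overlaps that of Dntt, the B cell factor gene Ebf1 from 3.87 to 0.43, and the neighbours Vpreb1 and Igll1, each from 4.82 to 0.80 and with shared regions. Of 12 T lineage genes 4 fell and 2 rose, with Zap70 from 3.68 to 0.03, Tox from 2.81 to 0.26, Gata3 from 3.02 to a listed 0 and Lck from 13.3 to 6.94. Of 18 other lymphoid progenitor genes 4 fell and 3 rose. Sox4 went from 11.05 to 0.53 scaled kb and Lax1 from 11.5 to 1.40, while Foxo1 went from 0.74 to 4.87 and Ccr9 from 2.96 to 9.90. In the NOTCH pathway 3 of 12 rose and 2 fell: Rbpj, which encodes the DNA-binding partner of NOTCH, rose from 4.54 to 27.4 scaled kb and Hes1 from 2.04 to 4.55, while Nrarp fell from 12.7 to 4.69 and Maml2 from 16.5 to 9.81. Against WT LSK the counts were 5 lower and 0 higher for B lineage, 4 and 2 for T lineage, 5 and 2 for lymphoid progenitor and 2 and 2 for NOTCH pathway genes.

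Deletion of the Irf8 enhancer was compared in LMPP. All 8 genes had more scaled coverage in d56kb than in WT LMPP, with a median of 0.46 against -0.01 for all genes, and none passed. The same WT LMPP libraries entered the comparison with WT LSK, so both results are not independent. The members with the smallest p were Il7r at 1.49 ± 0.42 (SE, adjusted p = 0.124, WT LMPP listed at 0) and Notch1 at 0.51 ± 0.14 (adjusted p = 0.122). Of all genes 0.442% were called higher and 0.0936% lower, 103 in all, and 2863 had an unadjusted p under the threshold, among them these 2 members. Without scaling 5 members were called higher, but the median of all genes was then 0.41 (-0.01 with scaling) and the split went from 85 higher and 18 lower to 3137 and 115. Relative to that median the 8 genes lay between 0.39 and 1.12. Of 30 elements 9 were gained and 0 lost, against 17.1% and 0.78% of all elements. The share of tags in regions was higher in both d56kb LMPP libraries than in either WT LMPP library, and its part in the result was not tested beyond a fit with that share as a covariate, which called 0 members and 0 genes. None of the 4 lists had a gene past the threshold.

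IRF8KO LMPP, which lack the factor itself, were also set against WT LMPP. Here 7 of the 8 genes had less coverage and Il7r more, with a median of -0.28 against -0.04 for all genes. No member passed, and none had an unadjusted p under the threshold, whereas 2.64% of all genes were called higher and 5.17% lower, and 4314 had such an unadjusted p. Rag1 differed by -0.52 ± 0.30 (SE, adjusted p = 0.325), and by 0.74 with a 10 kb window. Leaving out the second IRF8KO library gave 2 called members, Rag1 among them at -1.02 (adjusted p = 0.0266). The unscaled fit called 0 members, put the median of all genes at -0.29 (-0.04 with scaling) and changed the split from 508 higher and 994 lower to 81 and 1190. Of 19 elements 2 were lost and 0 gained, against 11.5% and 2.87%. They were the elements 30.5 kb upstream of Dntt and 36.0 kb upstream of Tcf7. Of the lists, 1 of 18 lymphoid progenitor genes passed, Bach2, a repressor of myeloid genes in lymphoid progenitors, which fell from 13.5 to 7.22 scaled kb (adjusted p = 0.00945).

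The 2 Irf8 alleles were then compared directly. IRF8KO LMPP had less coverage than d56kb LMPP at all 8 genes, with a median of -0.80 against -0.02, and 2 passed: Notch1 fell by 0.70 ± 0.14 (adjusted p = 0.00671) and Dntt by 0.87 ± 0.25 (adjusted p = 0.0346). Lower calls made up 10.1% and higher calls 6.02% of all genes. Both calls were lost without either d56kb LMPP library, and the Dntt call also without the first IRF8KO library, while 5 members were called without the second. With the share of tags in regions as a covariate neither passed, Notch1 at -0.70 (adjusted p = 0.0526) and Dntt at -0.49 (adjusted p = 0.328), and the 2 alleles did not overlap in that share. Without scaling all 8 were called lower, the median of all genes was -0.69 (-0.02 with scaling), and the split went from 1157 higher and 1947 lower to 523 and 9788. Relative to that median the 8 genes lay between -1.05 and -0.47. Of 29 elements 11 were lost and 0 gained, against 27.9% and 0.863%. Bach2 fell from 14.4 to 7.22 scaled kb (adjusted p = 0.00273) and Ccr7 from 12.2 to 5.43, among the 3 of 18 lymphoid progenitor genes that passed. In the NOTCH pathway 2 of 12 fell, Maml1 and Hes1, and 1 gene fell in each of the B and T lineage lists, Blnk and Gata3. None rose.

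Within d56kb mice, GMP had less coverage than LMPP at 2 members. Dntt fell by 2.47 ± 0.25 (SE, adjusted p = 4.3e-05) and passed under all 14 alternatives, and Notch1 fell by 0.58 ± 0.14 (adjusted p = 0.0120). Lower calls made up 8.58% and higher calls 8.99% of all genes. The Notch1 call was lost without either LMPP library or the second GMP library. With a 10 kb window Notch1 was at -0.23 (adjusted p = 0.700) and with a 100 kb window at -1.12. The call was also lost without scaling, where the split went from 1729 higher and 1649 lower to 1745 and 1107. Lef1 differed by -0.81 ± 0.29 (adjusted p = 0.0746) and passed with a 10 kb window, at -1.65. Satb1 differed by 0.13 (adjusted p = 0.845), with both GMP libraries above both LMPP libraries. Of 35 elements 8 were lost and 1 gained, against 12.7% and 18.3%. Among the lists 6 of 18 lymphoid progenitor genes fell and 2 rose, with Flt3 from 45.6 to 23.7 scaled kb, Lax1 from 9.33 to 1.77 and Ccr7 from 12.2 to 2.28. For B lineage genes 2 fell, Blnk (17.2 to 2.75) and Ebf1 (2.62 to a listed 0), and 3 rose. Those that rose included the neighbours Vpreb1 (6.00 to 16.0) and Igll1 (6.00 to 15.2), which share regions. The 4 T lineage genes that fell were Zap70, Tox, Gata3 and Lck, and the 3 NOTCH pathway genes were Hes1 (4.88 to 0.60), Maml2 and Dtx1. The 6 GMP markers summed to 57.3 and 63.8 scaled kb in d56kb LMPP.

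MDP had less coverage than d56kb LMPP at 5 members. Dntt fell by 2.09 ± 0.25 (SE, adjusted p = 0.000115). Tcf7 fell by 1.102 ± 0.29 (adjusted p = 0.0179) and Lef1 fell by 1.03 ± 0.29 (adjusted p = 0.0273). Rag2 fell by 1.02 ± 0.31 (adjusted p = 0.0383) and Rag1 fell by 0.93 ± 0.30 (adjusted p = 0.0479). Notch1 differed by -0.03, Satb1 by 0.03 and Il7r by 0.17, and each of these overlapped between the groups. The background was 8.22% lower and 8.44% higher. Leaving out a library left 1 or 2 calls: Rag1, Rag2 and Lef1 lost theirs without any 1 of the 4 libraries, Tcf7 without either LMPP library or the second MDP library, and Dntt in none of these. With a 10 kb window Rag1 was at -0.03 and Lef1 at -1.65. Of 34 elements 6 were lost and 2 gained, against 14.3% and 15.2%. Lymphoid progenitor genes were 3 lower (Lax1, Flt3 and Arpp21) and 3 higher, and B lineage genes 2 lower and 2 higher. The 2 higher B lineage genes were the neighbours Vpreb1 and Igll1, which share regions, each from 6.00 to 12.1 scaled kb. T lineage genes were 4 lower and 0 higher. NOTCH pathway genes were 3 lower (Hes1, Maml2 and Nrarp) and 1 higher (Rbpj, from 4.88 to 7.57). The GMP and MDP comparisons share the d56kb LMPP libraries.

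MDP and GMP differed at no member in the test, with 1.32% of all genes called higher and 1.1% lower in MDP, 465 in all, and 2400 with an unadjusted p under the threshold. Notch1 was higher in both MDP libraries than in both GMP libraries, by 0.55 ± 0.14 (SE, adjusted p = 0.0653), and passed with a 100 kb window (0.58, adjusted p = 0.0138). The other member with an unadjusted p under the threshold was Tcf7, at -0.73 (adjusted p = 0.284). Dntt, at 0.38 (adjusted p = 0.698), overlapped between the groups and passed under 1 of 14 alternatives. The merged element that spans its start was called in both MDP libraries, at 1002 and 1139 bases, and in neither GMP library. The start window itself was not covered in both libraries of either group. Without scaling the split went from 254 higher and 211 lower to 97 and 150, and 0 members passed. Of 27 elements 3 were gained and 2 lost, against 6.28% and 9.27%. Of the lists 1 gene passed, Ccr7, from 2.28 scaled kb in GMP to 9.35 in MDP (adjusted p = 0.0147).

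**Figure D5:**
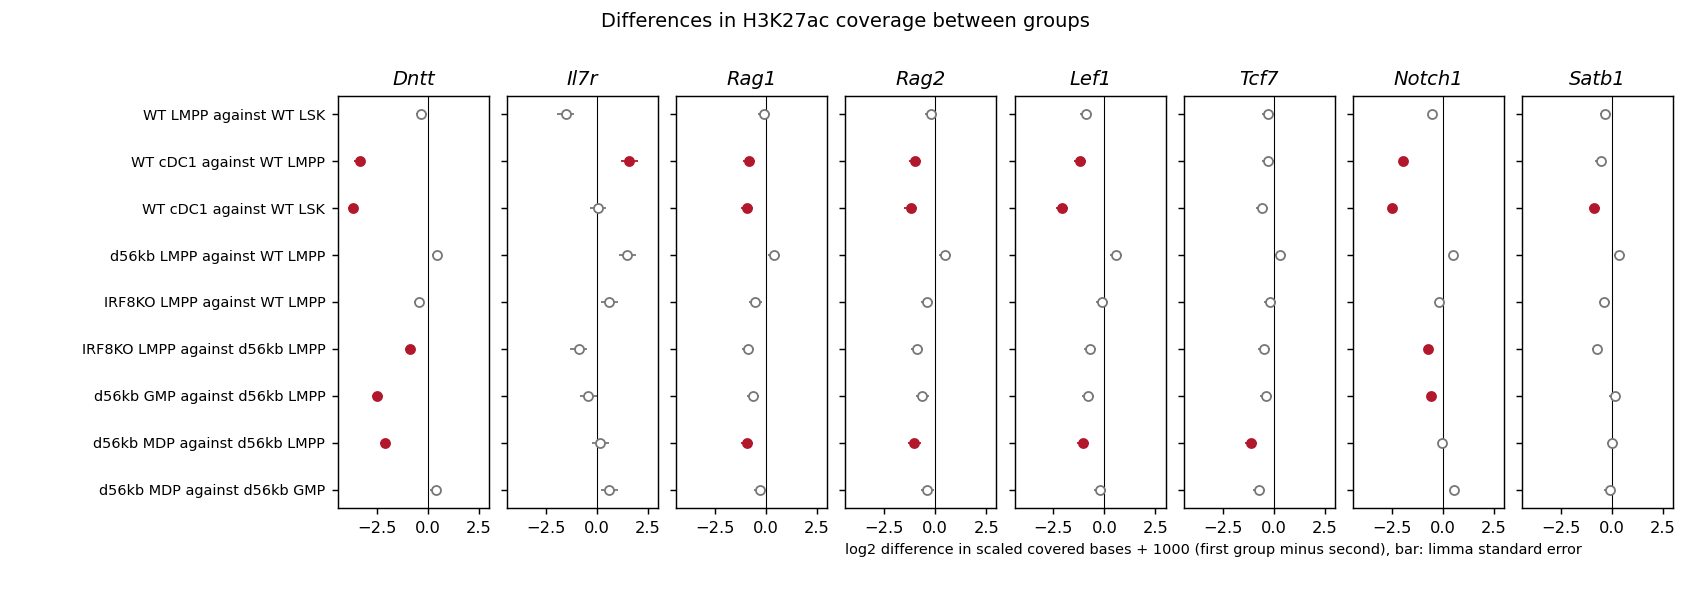
Log2 difference of scaled covered bases plus 1000 (first group minus second) for each gene in each of 9 comparisons, with limma's standard error as a bar. Filled red points passed an adjusted p of 0.05: 5 members lower and Il7r higher in cDC1 against LMPP, 6 lower in cDC1 against LSK, 2 lower in IRF8KO against d56kb LMPP, 2 in GMP and 5 in MDP.

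Factor peaks near these genes were read from mature cells only, since no factor library of LSK or LMPP was analysed here. IRF8 peaks called in both cDC1 libraries occurred in 5 of the 8 windows, against 61.2% of all gene windows. They were 13 distinct peaks, and Lef1, Tcf7 and Satb1 had none. Peaks called in a single cDC1 library numbered 3 at Satb1, 1 at Lef1 and 0 at Tcf7. At Notch1 the peak 31.3 kb into the gene (chr2:26472390-26472688) lay in the element that was called in both cDC1 libraries, and the peak 10.7 kb into the gene (chr2:26492892-26493346) in an element called in 5 progenitor groups and neither cDC1 library. At Il7r the 4 peaks lay 54.4 kb downstream of the start, 6.6 kb into the gene, and 32.9 and 42.2 kb upstream, and a further peak over the start (chr15:9529715-9530001) was called in the first cDC1 library alone. The 5 peaks in the Rag1 window lay 18.9 to 49.9 kb upstream of Rag1, nearest to Traf6, and 2 of them are also counted for Rag2. At Dntt 2 peaks lay 35.1 kb upstream and 62.8 kb downstream of the start, nearest to Blnk and Tll2, outside the block that was lost in cDC1.

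In monocytes IRF8 peaks occurred in 1 of the 8 windows, against 26.7% of all. That peak, 33.5 kb upstream of Dntt (chr19:40995636-40995931), lay in an element called in both d56kb MDP libraries, at 501 bases each, and in no other library. CEBPA peaks in monocytes occurred in 3 windows, against 57.5% of all, with 10 peaks: 7 at Notch1, 2 at Satb1 and 1 at Dntt. All 7 at Notch1 lay in H3K27ac elements, 2 of them (27.6 and 28.6 kb into the gene) in the element absent from WT LMPP and 3 of them 31.0 to 47.8 kb upstream. Both at Satb1 (45.1 and 48.1 kb into the gene) lay in elements called in both GMP libraries. In cDC1 CEBPA was called at 0 of the 8 windows, against 0.0274% of all windows, and only 2 CEBPA peaks in the genome were called in both cDC1 libraries. No peak called in both libraries of a group lay at a start of the 8 genes.

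Across the 14 libraries, which share depth and group structure, the coverage of Dntt followed that of Lef1 (Pearson r = 0.89) and Notch1 (0.76). Among the pairs without Il7r, Tcf7 followed Satb1 (0.14) and Notch1 (0.19) least. Il7r ran from -0.27 to 0.07 with the other 7. Outside the windows of the 8 genes, the gene most like Dntt was Mctp2 (r = 0.98), the one most like Lef1 was Hlf, a stem cell transcription factor gene (0.96), and the one most like Satb1 was Mymk (0.95). These are descriptions over libraries of the same groups and carry no test.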

How the data were processed

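H3K27ac, IRF8 and CEBPA ChIP-seq region lists were read as deposited. Bowtie 1.1.2, HOMER 4.9 and mm10 are named in the submitters' processing notes. Per the file headers, the authors called each library on its own. For H3K27ac they used HOMER's histone setting with input (peak size 500, 4-fold over input), and for IRF8 and CEBPA its factor setting, for IRF8 with no input. Both CEBPA libraries of a cell type were called on the first one's input. The deposited start and end columns hold positions in bases, a unit of the kind other, and the deposited score column is 1 in every row and was not used. Depth was read from the headers. The 7 input samples were not analysed here.

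Bases covered in each gene span plus 50 kb on each side were multiplied so that all 14 H3K27ac libraries had the same total. The log2 of these values plus 1000 bases entered a limma 3.58.1 model of the 7 groups (R 4.3.3, trend and robust, 7 residual degrees of freedom) for 19227 genes covered in at least 2 libraries. Scripts were tested on simulated data. Regions overlapping by at least 1 base were merged into elements; 2 against 2 libraries allow no small permutation p, so elements were not tested. The annotation was RefSeq GRCm38.p6. Genes named outside the 8 are list genes past the threshold (at most 4 per list and comparison), those most like a member over the libraries, and elements that are the 3 widest, at a start or under a factor peak. The members and lists were chosen with earlier results of these data known. 1 list gene is not reported here by name. Replicate numbers did not pair the samples: over 21 pairs of groups the correlation of deviations ran from -0.07 to 0.08, and 0 pairs passed 0.1. Alternatives changed the scaling, pseudocount, filter, window, region width, gene assignment, covariate, block and libraries.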

Additional observations from a re-analysis of the deposited data

How the results depend on the processing

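The 8 genes in 9 comparisons gave 72 differences, of which 21 passed the test. Of these 21, 6 passed under all 14 alternatives and 1 changed sign (Rag1, cDC1 against WT LMPP). Over all 72, 25 changed sign under at least 1 alternative. With a 10 kb window Rag1 turned to 0.18 (cDC1 against WT LMPP) and to 0.74 (IRF8KO against WT LMPP) and Tcf7 to 1.09 (cDC1 against WT LMPP), and with a 100 kb window Rag1 turned to 0.063. Tcf7 turned to 0.34 without scaling, and ranged from -0.74 to 0.17 when 1 library was left out.

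The number of called members moved as follows. Without scaling it was 8 for WT LMPP against LSK, 5 for d56kb against WT LMPP, 8 for IRF8KO against d56kb LMPP and 1 for GMP. In cDC1 against WT LMPP it was 2 with only regions wider than the minimum width, 2 with regions given to the nearest gene, 3 with the percentage of tags in regions as a covariate and 2 in a fit of the 4 libraries. In IRF8KO against d56kb LMPP it was 1 with a pseudocount of 250 bases, 1 with no filter, and 0 with a 10 kb window, wider regions, the covariate or the 4 libraries. GMP against LMPP gave 1 with the 4 libraries. MDP against LMPP gave 3 with a pseudocount of 250, 2 with no filter, 3 with a 10 kb window, 1 with wider regions, 3 with nearest genes, 3 with the covariate and 0 with the 4 libraries, and MDP against GMP gave 1 with a 10 kb or 100 kb window. The cause was not tested. In the nearest-gene setting no region goes to Rag2, whose start lies inside the span of Iftap. Rag1 gets 0.501 kb in the second cDC1 library alone. Neither gene was tested in that setting, so both had 13 alternatives.

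Leaving out 1 library (the lone remaining sample is assumed to vary like the other groups) gave 3 to 6 members for cDC1 against WT LMPP, 3 to 5 against LSK, 0 to 2 for IRF8KO against WT LMPP, 0 to 5 against d56kb LMPP, 1 to 2 for GMP and 1 to 2 for MDP against LMPP, and 0 in the other 3 comparisons. With the replicate block, 6 members passed in cDC1 against WT LMPP, 6 against LSK, 3 in IRF8KO against d56kb LMPP, 2 in GMP and 5 in MDP, and 0 in the other 4.

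Elements called in both libraries fell to 5 in IRF8KO LMPP and 6 in cDC1 when only regions wider than the minimum width counted. Other changes of merging and overlap kept each count of elements within 1.5 times. The lists give no signal height, so a weak and a strong region of equal width count alike. WT LMPP and d56kb GMP had the same mean depth, 2.82 M tags, and covered 23.6 and 39.0 Mb. Their mean shares of tags in regions were 19.4 and 54.1%. How far depth or that share limited what could be called was not tested.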
